A study of Mus musculus with 16 samples.

Results

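Immediate early genes are switched on within minutes of a stimulus without any need for new protein, and neuroscientists read their RNA as a record of recent neuronal firing. Calcium entry and growth factor signals reach their promoters through kinases that act on the transcription factors Creb1, Srf and the Elk family. Most of the products are themselves transcription factors, and Arc is an effector that acts at the synapse. The genes followed here were Fos, Fosb, Junb, Egr1, Egr2, Egr3, Egr4, Arc, Nr4a1 and Npas4. They were taken as the non-control probes carrying these gene names on the arrays. All 10 were found, each on 1 probe, among 34607 genes on the array.

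RNA of the hypothalamus, the brain region that governs hormones, feeding, temperature and sympathetic outflow, was measured on 1-colour Agilent arrays in 16 mice, 8 control and 8 KO chimera. KO chimeras were made from C57BL/6J mice by a lethal dose of 950 Rad and 1 retro-orbital injection of whole marrow from Adrb1tm1BkkAdrb2tm1Bkk/J mice, which lack the beta-1 and beta-2 adrenergic receptors. A ratio of 1:4 is stated for the knockout and C57BL/6J strains, with no word on what it counts, and tissue was collected 2 to 3 months later. The treatment text and the irradiated C57BL/6J strain stand under all 16 mice, and only KO chimeras carry a field for a knockout marrow donor, so whether control mice were irradiated or given other marrow is not settled. Only marrow-derived cells of a chimera carry the deletion, and its neurons are those of the C57BL/6J recipient. The ages of the mice are not given in the labels used here. The study's title asks what the loss of sympathetic drive does to bone, hypothalamus and gut.

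Each array held 59305 non-control spots, and 27276 to 43248 of them were well above background. These extremes were the KO chimera replicate 1 and control replicate 8 arrays, which shared slide 4 with no other array, so results are also given without that slide. Markers of hypothalamic neurons were well above background on all 16 arrays in 23 of 26 cases (Otp failed the filter described next). So were 12 of 13 markers of thalamus and 15 of 22 of cortex, hippocampus and striatum, so detection alone does not set the labelled region apart. Each array is 1 mouse, and the p-values reflect how much these mice varied.

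All 7 members with a promoter sequence at hand hold a short motif that the choice of genes did not use, in at least 1 annotated start. RefSeq promoter windows (GRCm38.p6, the 250 bases before the start) were at hand for 7 of the 10 members, and those of Arc, Egr1 and Egr3 were not. The 4 windows below belong to Fos and Nr4a1, the pair most alike from mouse to mouse, to Egr4, and to Npas4, which was linked to Egr2. Capitals mark TGACG or, on the opposite strand, CGTCA, the core of the cyclic AMP response element that Creb1 binds. The Fos window is chr12:85473640-85473889, plus strand. The Nr4a1 window is chr15:101266596-101266845, plus strand. The Egr4 window is chr6:85513590-85513839, minus strand. The Npas4 window is chr19:4989972-4990221, minus strand.
Fos: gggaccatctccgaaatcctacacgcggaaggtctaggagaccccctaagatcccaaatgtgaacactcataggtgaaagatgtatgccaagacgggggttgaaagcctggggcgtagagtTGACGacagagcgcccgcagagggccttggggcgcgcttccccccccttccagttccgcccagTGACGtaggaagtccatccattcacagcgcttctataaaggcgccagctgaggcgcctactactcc
Nr4a1: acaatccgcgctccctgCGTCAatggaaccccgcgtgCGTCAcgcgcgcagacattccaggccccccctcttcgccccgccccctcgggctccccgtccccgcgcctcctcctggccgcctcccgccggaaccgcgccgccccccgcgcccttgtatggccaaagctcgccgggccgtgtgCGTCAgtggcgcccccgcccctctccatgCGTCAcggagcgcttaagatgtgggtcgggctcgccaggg
Egr4: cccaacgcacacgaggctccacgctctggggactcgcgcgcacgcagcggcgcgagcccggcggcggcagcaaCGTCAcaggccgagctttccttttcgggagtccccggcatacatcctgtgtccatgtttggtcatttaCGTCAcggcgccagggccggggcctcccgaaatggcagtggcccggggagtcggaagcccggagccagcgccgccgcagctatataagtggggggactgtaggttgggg
Npas4: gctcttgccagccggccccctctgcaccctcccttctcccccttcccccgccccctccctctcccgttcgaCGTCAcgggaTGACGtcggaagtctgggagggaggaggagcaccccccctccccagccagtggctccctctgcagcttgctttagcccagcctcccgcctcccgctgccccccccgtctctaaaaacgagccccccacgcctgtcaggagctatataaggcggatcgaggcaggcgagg
The core occurs 4 times in the Nr4a1 window and 2 times in each of the Fos, Egr4 and Npas4 windows. Fosb and Junb hold it 1 time each, and Egr2 holds it in 3 of its 5 annotated starts, 2 times in each. These 3 Egr2 windows overlap and can share the same sites. Over all 32851 promoters of the same length, 17.8% hold the core at least 1 time, 3.90% at least 2 times and 0.688% at least 3 times, on either strand. The whole palindrome TGACGTCA, which contains 2 overlapping cores, occurs in 0 of the 7 members' windows and in 1.55% of all windows. A CArG box, the site of Srf, lies in the windows of 4 of the 5 Egr2 starts, the 3 overlapping ones among them, and in 1.47% of all windows. The percentages count single windows, whereas Egr2 has 5. The motif GCGGGGGCG, a site of Egr proteins themselves, lies in the Fosb and Nr4a1 windows and in 2.57% of all. The letters TATAAA of a TATA box, also searched, lie in the Fos window alone among the members and in 12.4% of all windows. These are matches of letters and were not tested for binding.

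Arc was lower in KO chimeras, and it was the member whose fall passed the test. Values throughout are log2 of the processed intensity relative to the array's 75th percentile, and all differences are KO chimera minus control. A gene was tested if its probe was well above background on at least 8 of 16 arrays, and it was called at an adjusted p under 0.05 in limma, adjusted over all 24363 genes tested. Of the 10 members 9 were tested, and the call was made for 1 of them, Arc, which was lower, and 0 were higher. Over all genes 2.8% were called lower, 1.03% higher and 3.83% in either direction, so 1 call among 9 says nothing about the members as a group. The groups overlapped for 9 of 9 tested members, and among all genes 0.846% lay wholly lower in KO chimeras. By unadjusted p under 0.05, Arc and Egr1 passed, 2 of 9, beside 20.7% of all genes. Among the 9 differences 7 were negative, against 50.1% of all genes, and their median was −0.28 against −0.00034 over all genes. Members vary together from mouse to mouse, so these signs do not count as 9 separate observations.

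Arc encodes a cytoskeleton-associated protein that drives the removal of AMPA receptors from synapses. Its probe lies at chromosome 15, 74499592 to 74499651, minus strand (mm9, the build of the array files). Control mice measured −0.01, −0.21, 0.44, 0.30, 0.31, 0.25, 0.59 and 0.59 (replicates 1 to 8), and KO chimeras measured −0.27, −0.32, −0.13, 0.03, −0.16, −0.38, 0.05 and −0.08. All 8 KO chimeras lay below the control median of 0.31, and 6 control mice lay above every KO chimera. The groups overlapped through control replicates 1 and 2, which sat within the KO chimera range. The means were 0.28 ± 0.28 and −0.16 ± 0.16 (SD, n = 8 each), a difference of −0.44 ± 0.11 (SE; 95% interval −0.67 to −0.20), or a signal 0.739 times that of control. limma gave an adjusted p of 0.0390, rank 659 of 24363 genes, and the exact two-sided permutation test over all 12870 assignments of the mice gave an unadjusted p of 0.0028. In these whole-tissue samples, fewer cells that express a gene and less RNA per cell cannot be told apart.

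The call on Arc was close to the threshold. Without slide 4 the difference was −0.38 (limma, adjusted p = 0.0800), and with the slide as a fixed block it was −0.41 (adjusted p = 0.0781). Leaving out each mouse in turn gave −0.51 to −0.39, with limma adjusted p of 0.0194 to 0.0772, and Arc was still called in 4 of these 16 fits, those that left out control replicate 1, control replicate 2, KO chimera replicate 4 or KO chimera replicate 7. The direction was the same in every batch that held both groups: −0.40 on scan day 1, −0.47 on scan day 2, and −0.24, −0.58, −0.86, −0.26 and −0.24 on slides 1, 3, 4, 5 and 6. Slides 4 and 5 held 1 mouse of each group, and slide 2 held 1 KO chimera.

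**Figure D1:**
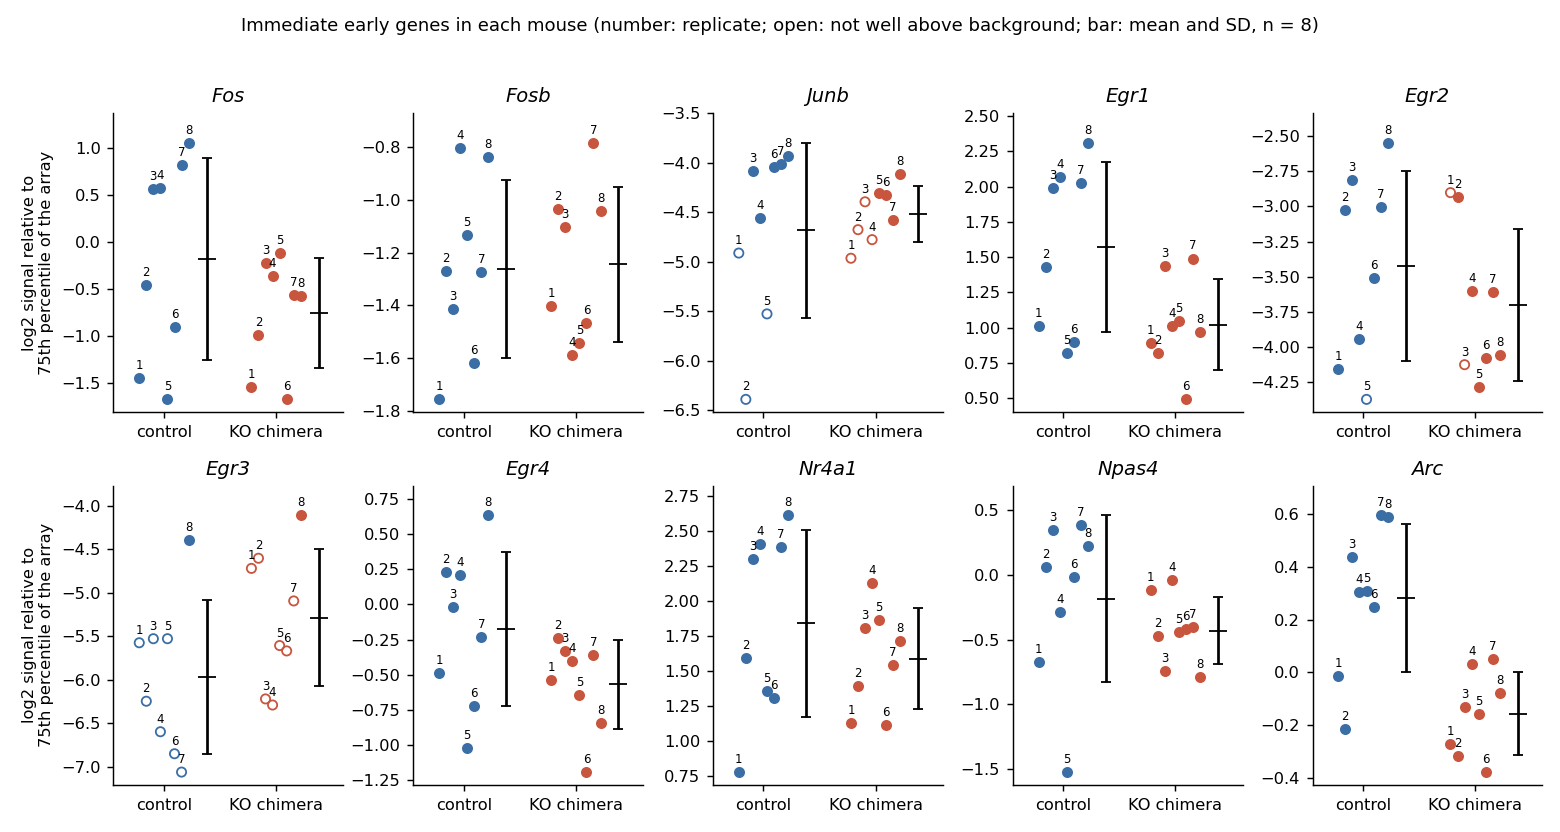
Signal of each immediate early gene in each mouse (vertical axis, log2 relative to the array's 75th percentile; blue, control; red, KO chimera; the number is the replicate; open circles were not well above background; bars are mean and SD, n = 8). For Arc 6 control mice stand above every KO chimera. For Nr4a1 control mice lie at both ends of the range. For Fos and Egr1 control mice lie at the high end, and the lowest mouse is KO chimera replicate 6.

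Egr1, Egr2, Egr3 and Egr4 encode zinc finger transcription factors that bind the same GC-rich site. Egr1 (chromosome 18, 35024395 to 35024454, plus strand) ranged from 0.82 to 2.31 in control with a median of 1.71, and from 0.49 to 1.49 in KO chimeras with a median of 0.99. All 8 KO chimeras lay below the control median, yet control replicates 1, 2, 5 and 6 lay within the KO chimera range. The difference was −0.55 ± 0.22 (SE; 95% interval −1.02 to −0.07) and did not pass (limma, adjusted p = 0.175), with an exact permutation p of 0.0471 before adjustment. Within slides it ran from −1.42 (slide 4) to 0.67 (slide 5), and within the scan days it was −0.62 and −0.48.

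Egr4 (chromosome 6, 85461153 to 85461212, minus strand) ranged from −1.02 to 0.63 in control (median −0.12) and from −1.19 to −0.24 in KO chimeras (median −0.47). The lowest mouse was KO chimera replicate 6 and the highest was control replicate 8. The difference was −0.39 ± 0.21 (SE; 95% interval −0.83 to 0.05; limma, adjusted p = 0.297). Egr2 (chromosome 10, 67004798 to 67004857, plus strand), a factor also required for myelination by Schwann cells, was dim: it was well above background in 7 control mice and 6 KO chimeras. It ranged from −4.38 to −2.55 in control and from −4.29 to −2.90 in KO chimeras, a difference of −0.28 ± 0.28 (SE; limma, adjusted p = 0.611). The Egr2 difference was −0.15 without control replicate 8, −0.05 with normexp background correction, −0.45 with quantile normalization or the deposited table, and 0.10 and −0.65 on the 2 scan days. Egr3 (chromosome 14, 70479222 to 70479281, plus strand) was well above background in 1 control mouse and 1 KO chimera, both replicate 8, and was not tested. Its values of −7.06 to −4.39 and −6.29 to −4.11 therefore lie mostly at the limit of detection.

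Fos, Fosb and Junb encode subunits of the dimeric transcription factor AP-1, in which a Fos protein joins a Jun protein. Fos (chromosome 12, 86817900 to 86817959, plus strand; the mean of 10 spots on each array) varied more between control mice than any other member. Control replicates 1, 5 and 6 measured −1.44, −1.66 and −0.90, whereas replicates 3, 4, 7 and 8 measured 0.56, 0.58, 0.82 and 1.06. KO chimeras lay between −1.67 and −0.11 with a median of −0.57. All 8 KO chimeras were below the control median of 0.05, but the lowest control mice were as low as the lowest KO chimeras. The difference of −0.57 ± 0.40 (SE; 95% interval −1.41 to 0.27) was larger in size than that of Arc and did not exceed the spread between mice (limma, adjusted p = 0.436). Without slide 4 it was −0.28, on scan day 2 it was −0.35, and within slides it ran from −2.59 (slide 4) to 1.10 (slide 5).

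Fosb (chromosome 7, 19888168 to 19888227, minus strand), whose stable splice form accumulates under repeated stimulation, was well above background on every array. It ranged from −1.75 to −0.81 in control and from −1.59 to −0.79 in KO chimeras, so that the groups lay on top of each other. The difference was 0.02 ± 0.15 (SE; 95% interval −0.30 to 0.33; limma, adjusted p = 0.958), and its sign turned with quantile normalization (−0.04). Junb (chromosome 8, 87501881 to 87501940, minus strand) was well above background in 5 control mice and 4 KO chimeras, and ranged from −6.39 to −3.94 and from −4.97 to −4.11. Its difference of 0.17 ± 0.30 (SE; limma, adjusted p = 0.794) also turned sign with quantile normalization (−0.22) and without control replicate 2 (−0.08).

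Nr4a1, an orphan nuclear receptor induced by many stimuli, and Npas4, a calcium-dependent transcription factor largely confined to neurons, had lower means in KO chimeras and did not pass the test. Nr4a1 (chromosome 15, 101105071 to 101105130, plus strand) ranged from 0.78 to 2.61 in control (median 1.95) and from 1.11 to 2.13 in KO chimeras (median 1.63), a difference of −0.25 ± 0.25 (SE; limma, adjusted p = 0.594). Without slide 4 that difference was −0.08, without control replicate 8 it was −0.14, without control replicate 1 it was −0.41, and on scan days 1 and 2 it was −0.55 and 0.04. Npas4 (chromosome 19, 4984356 to 4984415, minus strand) ranged from −1.52 to 0.38 in control (median 0.02) and from −0.79 to −0.05 in KO chimeras (median −0.43). All 8 KO chimeras lay below the control median of Npas4, and the lowest of the 16 mice was control replicate 5. The difference was −0.24 ± 0.23 (SE; limma, adjusted p = 0.573). It was −0.43 without control replicate 5, −0.37 with array medians as the scale, and −0.07 and −0.42 on scan days 1 and 2.

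**Figure D2:**
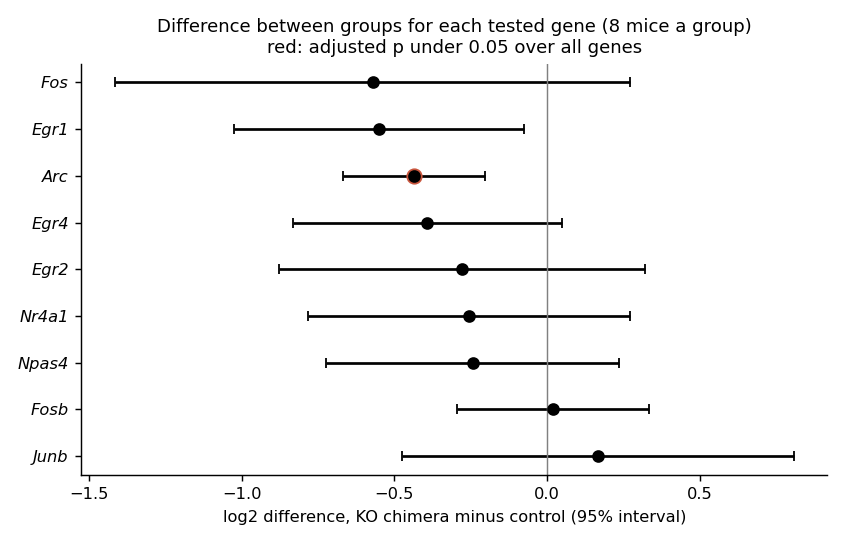
Difference between the groups for the 9 tested genes (horizontal axis, log2, KO chimera minus control; bars are 95% intervals from limma, 8 mice a group). The intervals of Arc and Egr1 lie below 0; Arc, ringed in red, was called over all genes; the point of Fos lies farthest from 0 and has the widest interval.

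Whether the fall of Arc was shared was asked by testing the difference itself: in each mouse the log2 value of another member was subtracted from that of Arc, and the groups were compared by the exact two-sided permutation test, adjusted over the 8 members compared. None of the 8 passed with the main scaling, with quantile normalization or with the deposited value table. Away from the floor the last 2 gave nearly the same values for the members, so they are not separate checks. With the main scaling the 2 largest gaps were to Fosb, against which Arc fell by 0.45 more (exact permutation p = 0.0152, adjusted p = 0.116), and to Junb, by 0.60 more (exact permutation p = 0.0289, adjusted p = 0.116). The gap to Junb was 0.22 with quantile normalization (exact permutation p = 0.577) and 0.24 with the deposited table (0.420), whereas that to Fosb was 0.40 with each (0.0264 and 0.0278). At the other end Fos and Egr1 changed by 0.14 and 0.11 more than Arc did, in the same direction (exact permutation p = 0.719 and 0.561). For Egr4 the change differed from that of Arc by 0.04 (exact permutation p = 0.853), for Nr4a1 by 0.18 (0.386), for Npas4 by 0.19 (0.507) and for Egr2 by 0.16 (0.615). A difference between Arc and the other members was thus not detected, and neither does a p that misses the threshold show that they changed alike. Arc passed where Egr1 and Fos did not beside a smaller spread: its SD was 0.28 in control mice, against 0.60 for Egr1 and 1.07 for Fos.

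The spread between mice was wider in control than in KO chimeras for every member. The SD in control was the larger for 10 of 10 members, whereas it was the larger for 42.1% of all genes tested. The ratio of the control SD to the KO chimera SD was 1.79 for Arc, 1.85 for Egr1, 1.82 for Fos, 1.85 for Nr4a1, 1.73 for Egr4 and 2.46 for Npas4. It was 1.12 for Egr3, 1.16 for Fosb and 1.25 for Egr2, and it was 3.13 for Junb, of which the lowest control value was not well above background. The Junb ratio was 1.12 with quantile normalization and 1.31 with the deposited table, where Npas4 (2.36 with each) had the highest. Over the 9 tested members its median was 1.82, and over all genes it was 0.913, with 1.24 as the 75th percentile. All 9 tested members kept the larger SD in control with quantile normalization, with the deposited values and without slide 4, where their medians were 1.70, 1.71 and 1.68. Quantile-normalized and deposited values nearly coincide away from the floor and are not separate checks. This is a description without a test, and since members vary together they do not count as 10 separate observations.

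The same mice stood at the ends for most members. Control replicate 8 was among the 4 highest of 16 mice for 9 of 9 tested members, control replicate 3 for 8, control replicate 7 for 6 and control replicate 4 for 5. At the low end, control replicates 1 and 5 were among the 4 lowest mice for 6 of 9 members each, and KO chimera replicates 6 and 1 for 5 each. With rank 1 as the highest, the mean rank over members was 1.56 for control replicate 8, 3.44 for 7, 4.22 for 3 and 4.89 for 4. It was 12.7 for control replicates 1 and 5, and 13.3 for KO chimera replicate 6. KO chimera replicates 3, 4, 5, 7 and 8 lay between 7.56 and 9.89, in the middle of the order. The mice with the 4 highest and the 4 lowest mean ranks were the same with quantile normalization and with the deposited values, which nearly coincide for most members. No single mouse lay far from the rest of its group by Dixon's gap test in any of the 20 groups of 8 (10 members, 2 groups), the largest gap being that of control replicate 5 for Npas4, 0.447 of the range.

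**Figure D3:**
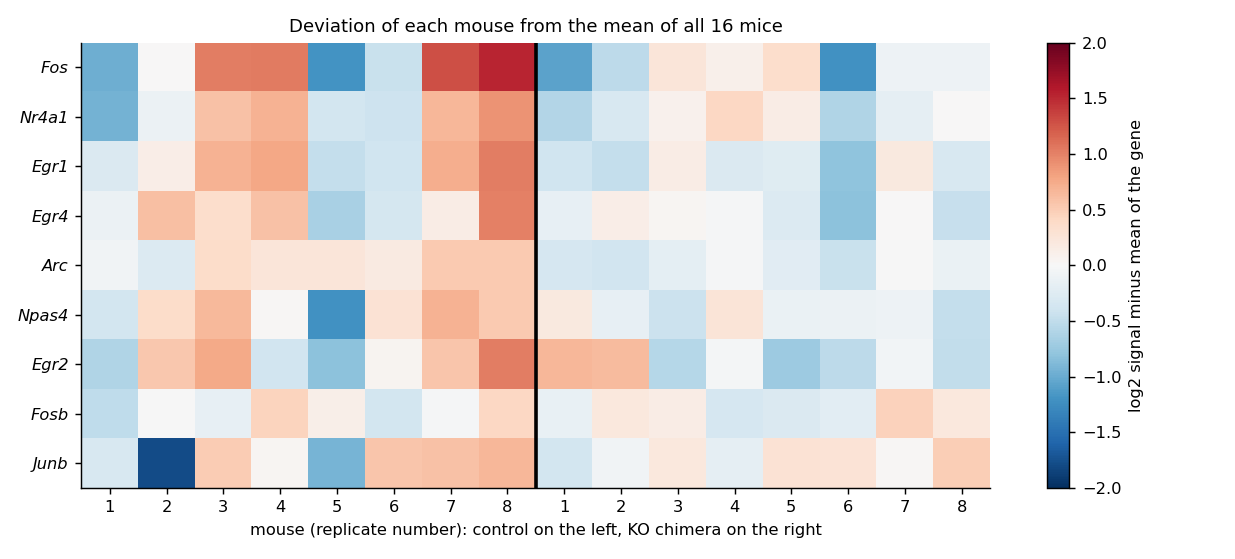
Deviation of each mouse from the mean of all 16 mice for the 9 tested genes (colour, log2; columns, mice by replicate number, control left of the line and KO chimera right of it). Control replicates 3, 4, 7 and 8 are red in most rows and control replicates 1 and 5 blue; KO chimera columns are paler.

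The 4 highest mice were on 3 slides and both scan days (replicates 4 and 8 on day 1, replicates 3 and 7 on day 2), and the low control mice were on day 2 (replicate 1) and day 1 (replicate 5). The array of the highest mouse, control replicate 8, had the most spots well above background (43248), and that of KO chimera replicate 1 the fewest (27276). KO chimera replicate 6, the mouse placed last by mean rank (13.3), had 41774, and control replicates 1 and 5 had 38525 and 35826. The part of array quality in the order of the mice was not tested. An interaction of group with scan day was called in limma for 0 of 24363 genes (0%; 1032 at an unadjusted p under 0.05), and the lowest unadjusted p among members was 0.196, for Egr2. With 4 mice of each group a day this test has little power, since limma called 0 and 7 genes within the days against 933 overall.

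Some members went together from mouse to mouse, above all in the control group. With the group means removed, the Pearson correlation over the 16 mice was positive in 35 of 36 pairs of tested members, with a median of 0.486 and a range of −0.115 to 0.944. Within the 8 control mice 0 of 36 pairs had a negative r (median 0.628), and within the 8 KO chimeras 13 of 36 did (median 0.156, lowest −0.849 for Junb with Egr2). Every member also had a smaller SD in KO chimeras (for Fos 0.59 against 1.07 in control). The part of this narrower spread in the lower r was not tested. Junb and Egr2 were dim, well above background in 4 and 6 KO chimeras, so the r of their pairs rest partly on values near the background. Negative r in KO chimeras also occurred between probes well above background on all arrays, such as Fosb with Npas4 (−0.553). By permutation within groups (100000 resamples, adjusted over 36 pairs), 7 pairs passed by Pearson's r, and 4 of these by Spearman's rho as well. The closest was Fos with Nr4a1 (r = 0.944, permutation p = 2e-05, adjusted p = 0.00072; rho = 0.938, permutation p = 3e-05, adjusted p = 0.00108). Next came Fos with Egr1 (r = 0.916, permutation p = 5e-05, adjusted p = 0.0009; rho = 0.912, permutation p = 0.00016, adjusted p = 0.00288). Egr1 with Nr4a1 gave r = 0.843 (permutation p = 0.00112, adjusted p = 0.0101) and rho = 0.882 (permutation p = 0.00074, adjusted p = 0.00888). Leaving out the 2 mice farthest from the median of the gene on the x axis changed these r to 0.963, 0.879 and 0.809. Within scan days 1 and 2 the r of Fos with Nr4a1 was 0.964 and 0.967, and that of Fos with Egr1 was 0.935 and 0.933.

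Egr2 with Npas4 formed a link outside that trio. It gave r = 0.763 (permutation p = 0.00035, adjusted p = 0.0042) and rho = 0.782 (permutation p = 0.00116, adjusted p = 0.0104). Without the 2 farthest mice r was 0.716. The Egr2 probe was dim, well above background in 7 control mice and 6 KO chimeras, and all its values entered r. Its lowest control value and its highest KO chimera value were among those not well above background. Egr1 with Egr4 (r = 0.798, permutation p = 0.00149, adjusted p = 0.0107), Fos with Egr4 (r = 0.717, permutation p = 0.00779, adjusted p = 0.0401) and Arc with Nr4a1 (r = 0.718, permutation p = 0.00602, adjusted p = 0.0361) passed by r. Their rho of 0.656, 0.600 and 0.679 did not pass (permutation p = 0.0225, 0.0392 and 0.0117, adjusted p = 0.0914, 0.108 and 0.0698). Without the 2 farthest mice these r were 0.672, 0.590 and 0.737, and within scan days 1 and 2 they were 0.793 and 0.867, 0.789 and 0.798, and 0.624 and 0.967. Arc with Fos gave r = 0.650 and rho = 0.665 and did not pass (permutation p = 0.0184 and 0.0136, adjusted p = 0.0725 and 0.0698).

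The 7 pairs that passed by r had a positive r within each group, and it was the higher in control for 6 of them. Within the 8 control mice Fos with Nr4a1 gave r = 0.953 and within the 8 KO chimeras r = 0.915. For Fos with Egr1 the values were 0.977 and 0.711, for Egr1 with Nr4a1 0.941 and 0.506, for Egr1 with Egr4 0.845 and 0.648, for Fos with Egr4 0.799 and 0.462, for Egr2 with Npas4 0.882 and 0.530, and for Arc with Nr4a1 0.709 and 0.747. Other pairs differed in sign, such as Fos with Npas4 (0.786 and −0.304) and Fos with Egr2 (0.759 and −0.477). Whether these differ between the groups was not tested. Arrays share their scaling over all genes, so part of any correlation between genes of 1 array can come from it, and that part was not tested.

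**Figure D4:**
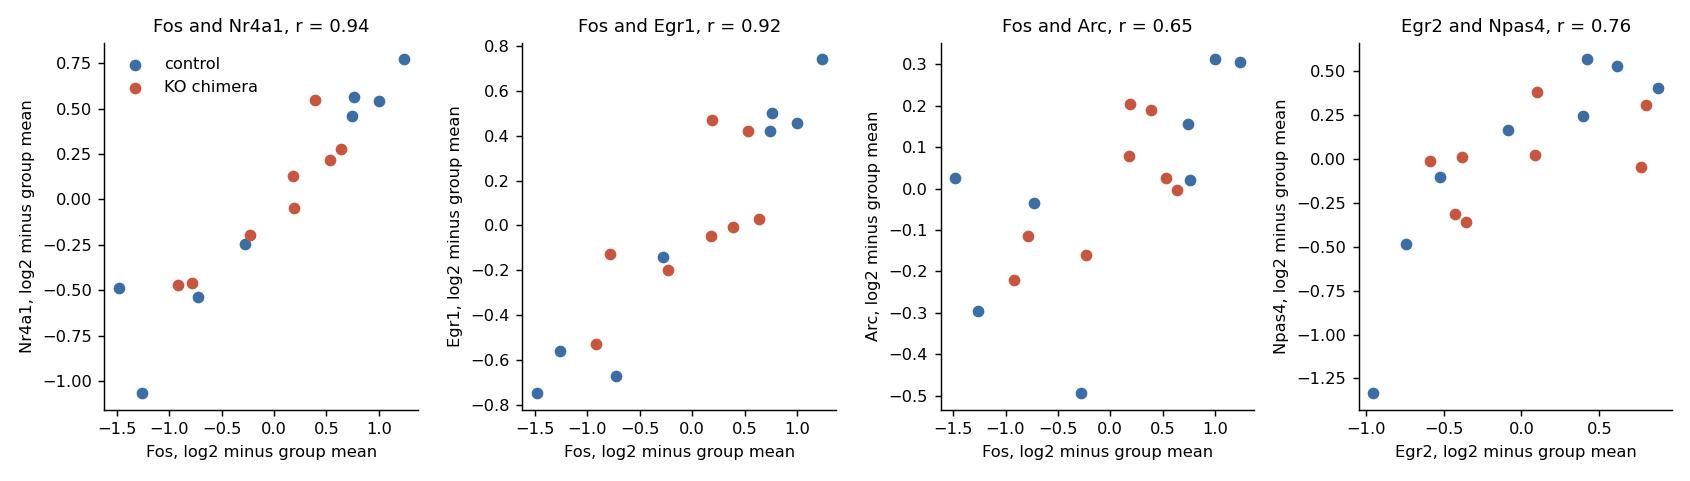
Signals of 4 pairs of members in 16 mice (both axes, log2 after the group mean is removed; blue, control; red, KO chimera). Fos rises with Nr4a1 (r = 0.944) and Egr1 (r = 0.916) along a line with control mice at both ends; Arc follows Fos more loosely (r = 0.650), and the last panel shows Egr2 with Npas4 (r = 0.763).

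Outside the members, the genes closest to Fos over the 16 mice were looked up among 16826 genes with a symbol, by Pearson's r with group means removed. The closest was Btg2 (r = 0.970, rho = 0.959), a growth-arrest gene of the primary response, followed by Dusp1 (r = 0.866), a phosphatase that turns off MAP kinases and is itself a primary response gene. Dnmt3l (0.860), Zfp317 (0.785) and Cdk7 (0.767) followed. Over all 24276 other genes, Nr4a1 was 2nd and Egr1 3rd in likeness to Fos, Egr4 was 19th, Arc 51st and Npas4 127th. Btg2 itself differed by −0.38 between groups and Dusp1 by −0.46, and neither passed (limma, adjusted p = 0.407 and 0.136).

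The genes closest to Arc were of other kinds. They were Orc2 (r = 0.838), a subunit of the origin recognition complex, Cd53 (0.810), a tetraspanin of white blood cells, Btk (0.791), a kinase of B cells and myeloid cells, Syt17 (0.790), a synaptotagmin, and Nkiras1 (0.780). With group means left in, the r of Orc2 and Btk fell to 0.07 and 0.03. The closest member was Nr4a1, 37th of 24276 genes, followed by Junb (92nd), Fos (140th) and Egr1 (219th). Each of these genes was picked for its r, so the values carry no p.

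In the wider set of primary response genes a few fell and none was called higher. Of 36 such genes 30 were tested, and 4 fell, 0 rose and 26 did not pass, with 20 of 30 differences negative and a median of −0.09. The shares over all genes, for this and each list below, were 2.8% called lower, 1.03% called higher and 50.1% negative. Arl4d, a small GTPase of the Arf family, fell by 0.62 log2 units (SE 0.13; adjusted p in limma 0.0221), and Csrnp1, a nuclear protein induced by Axin, fell by 0.44 (SE 0.10; adjusted p = 0.0315). Dusp6, a phosphatase specific for ERK, fell by 0.43 (SE 0.11; limma, adjusted p = 0.0384), and Trib1, a pseudokinase, by 0.40 (SE 0.10; limma, adjusted p = 0.0439). With each mouse left out in turn, Arl4d was called in 16 of 16 fits, Csrnp1 in 11, Dusp6 in 6 and Trib1 in 5. Without slide 4, Arl4d passed (−0.55), whereas Csrnp1 (−0.40; limma, adjusted p = 0.0582), Dusp6 (−0.37; 0.0778) and Trib1 (−0.33; 0.0888) did not. Fosl1, Ier2, Dusp5, Nr4a3, Zfp36 and Ptgs2 failed the filter.

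Delayed effectors, the genes that immediate early factors and neuronal activity switch on later, held 0 calls in either direction among 19 tested. Of these 11 differences were negative and the median was −0.03. Nrn1, a secreted neuritin that promotes neurite growth, came closest with −0.57 (limma, adjusted p = 0.0585), then Rheb, the GTPase that activates mTORC1, with −0.25 (adjusted p = 0.129) and Crem, a cyclic AMP response factor, with 0.17 (adjusted p = 0.144). Among 32 upstream kinases, channels and transcription factors 2 fell and 0 rose, with 19 negative differences and a median of −0.04. Those that fell were Camk4, the nuclear calmodulin kinase that phosphorylates Creb1 (−0.36 ± 0.08 SE; limma, adjusted p = 0.0235), and Cacna1c, the pore of an L-type calcium channel (−0.41 ± 0.11 SE; adjusted p = 0.0423). With each mouse left out in turn, Camk4 was called in 15 of 16 fits (not without control replicate 5, −0.35) and Cacna1c in 3. Camk4 did not pass with quantile normalization (−0.31; limma, adjusted p = 0.0511), the percentile over bright probes (0.0539), normexp (0.0686), the deposited table (0.0517) or the mean of its probes (−0.22; 0.227), nor within either scan day. Mrtfa, a cofactor of Srf, differed by −0.21 (limma, adjusted p = 0.0505).

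**Figure D5:**
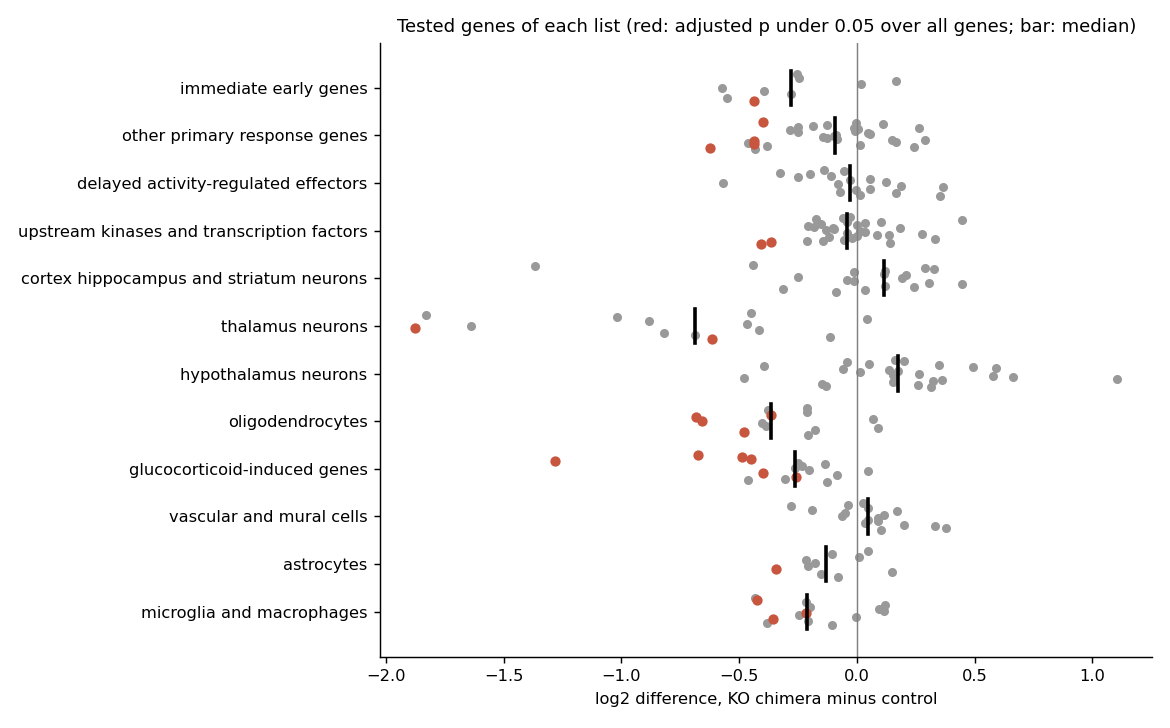
Differences of the tested genes in each list (horizontal axis, log2, KO chimera minus control; each point is a gene, red where the limma adjusted p over all genes was under 0.05; the bar is the list's median). Immediate early genes lie to the left of 0 except Fosb and Junb; thalamus markers lie farthest left, with a median of −0.69.

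Markers of neighbouring brain regions and of other cell types were read beside the members. For thalamus, which adjoins the hypothalamus, 13 of 13 markers were tested and 12 of these were well above background on all arrays; 12 differences were negative, with a median of −0.69, and 2 fell, Adarb1 (−0.62) and Prkcd (−1.88; limma, adjusted p = 0.0372 and 0.0425). With each mouse left out in turn, Adarb1 was called in 8 of 16 fits and Prkcd in 4, and without slide 4 Prkcd did not pass (−1.79; limma, adjusted p = 0.0829). Ramp3 differed by −1.64 (limma, adjusted p = 0.0707). The summed linear level of this list, in units of the array's 75th percentile, was 44.6 to 125 in control (median 77.4) and 29.5 to 67.4 in KO chimeras (median 49.7). Control replicates 5 and 7 had the highest sums, 125 and 123; control replicate 7 was high and control replicate 5 low for most members, and for Arc they measured 0.59 and 0.31. The part of thalamic tissue in the Arc difference was not tested.

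For cortex, hippocampus and striatum, where Arc and Egr1 are abundant, 19 of 22 markers were tested, 0 were called and the median was 0.12. Neurod6, Emx1 and Emx2 failed the filter, and the summed level was 17.4 to 24.2 in control and 21.1 to 26.1 in KO chimeras. The nearest to a call were Camk2a (−0.31; limma, adjusted p = 0.0606), Rgs9 (0.33; 0.0907) and Slc17a7 (−1.37; 0.125). Of 25 tested hypothalamic markers 0 were called, the median was 0.17, and the summed level was 556 to 775 in control and 472 to 864 in KO chimeras. The lowest adjusted p there were those of Gpr50 (1.11; limma, adjusted p = 0.118), Gal (0.32; 0.127) and Pomc (0.59; 0.168).

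Of 16 glucocorticoid-induced genes, a list that shares Dusp1, Per1 and Gadd45g with the primary response list, 15 differences were negative, with a median of −0.26. The 6 called lower were Zbtb16 (−0.68), Sgk1 (−1.28), Tsc22d3 (−0.49), Klf9 (−0.40), Fkbp5 (−0.26) and Sult1a1 (−0.45), with limma adjusted p of 0.000704 to 0.0425. The list's summed level was 282 to 395 in control and 256 to 332 in KO chimeras. Of 13 oligodendrocyte markers 4 fell, Mal (−0.66), Mobp (−0.68), Cldn11 (−0.48) and Mog (−0.36; limma, adjusted p of 0.0083 to 0.0392), and the summed level was 241 to 362 against 185 to 341. Of 14 tested microglia and macrophage markers 3 fell, among them Trem2 (−0.43) and C1qc (−0.36), with summed levels of 87.2 to 109 and 87.9 to 128, the highest in KO chimera replicate 1. Such sums weigh the brightest markers most. By the mean of centred log2 values, which weighs each marker alike, that mouse was the lowest of all for this list (−0.18). For oligodendrocytes its sum was 341 and its mean −0.16. Of 10 astrocyte markers Fgfr3 fell (−0.34; summed level 374 to 558 and 358 to 539), and next were S100b (−0.22; limma, adjusted p = 0.107) and Gja1 (−0.18; 0.216). None of 17 vascular and mural markers was called (summed level 38.04 to 51.2 and 42.5 to 50.6); Acta2 (0.38; limma, adjusted p = 0.126), Cspg4 (0.20; 0.136) and Cldn5 (0.33; 0.231) came first. With each mouse left out in turn, Fgfr3 was called in 15 of 16 fits (not without control replicate 5, −0.31) and Fkbp5, Sult1a1, Mog and C1qc in 4 each; the other genes named here as having fallen were called in all 16. Fgfr3 did not pass with quantile normalization (−0.27; limma, adjusted p = 0.0725), the percentile over bright probes (0.0513), the deposited table (0.0653) or the mean of its probes (−0.23; 0.103), nor within either scan day. Without slide 4, Sult1a1 (−0.44; limma, adjusted p = 0.0561), Mog (−0.33; 0.0776) and C1qc (−0.33; 0.0788) did not pass. Negative differences made up 11 of 13 for oligodendrocytes (median −0.36) and 11 of 14 for microglia and macrophages (−0.21). They made up 7 of 10 for astrocytes (−0.13) and 5 of 17 for vascular and mural cells (0.05). Over all genes 50.1% of differences were negative and 2.8% of genes were called lower. The part of these markers in the values of the members was not tested.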

How the data were processed

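The members and the gene lists were chosen with earlier results of these data known. Scanner intensities of 16 arrays (Cy3, total RNA by Trizol) were deposited by the authors on a linear scale. Per the file headers the processed intensity has its background subtracted; the submitters' processing notes name Agilent Feature Extraction 10.7. The authors also deposited a table of log2 values, with a floor of 2.2 and array medians of 5.21 to 5.26, which served as an alternative. Against the scanner's own log2 values it gave r of at least 0.9996 on each array, with slopes of 0.978 to 1.025. This puts it on a log2 scale without gene centring, and the procedure that aligned its arrays is unknown. Away from the floor its values for the members lay close to the quantile-normalized ones (Fos in control replicate 1, 6.871 and 6.872). Results with quantile normalization and with the deposited table are therefore not separate checks. Groups came from the labels' source name, and 1 KO chimera title is spelled with a zero for the letter O.

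Control spots and outlier spots (0.248% of spots) were dropped. Each log2 value had the 75th percentile of its array taken off, and repeated spots of 1 probe were averaged. The filter kept probes well above background in 8 or more arrays (35144 of 55681), and a gene was represented by its brightest probe on average. RefSeq accessions named 28026 probes, symbols 3418 and older symbols 295, and 23942 kept the name in the files. Groups were compared with limma 3.58.1 (R 4.3.3; lmFit, eBayes, Benjamini-Hochberg, threshold 0.05). Permutation tests and figures used Python 3.11.15, scipy 1.17.1 and matplotlib 3.10.9. Arrays lay on 6 slides and were scanned on 2 days with 4 mice of each group a day. The number of arrays limits the precision. In simulated data of this comparison (24363 genes), the fit called 41 of 67 genes shifted by 0.5 (log2), 62 of 67 shifted by 1, 65 of 66 shifted by 2, and 14 of 24163 genes that were not shifted. These shares cover genes of the whole array. Among the tested members the SE ran from 0.11 for Arc to 0.40 for Fos, so the shares need not hold for each member.

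The genes named were all members; of each other list, those past the threshold (at most 6) or, where fewer than 3 passed, the 3 with the smallest p; and the 5 genes most like Arc and Fos. Further list genes are named where they failed the filter. The result of 1 list gene is not reported here. The alternatives were other normalizations and background correction, the deposited table, other filters and probe rules, slide, scan day and replicate number as blocks, each scan day alone, trend and robust eBayes, array weights, each mouse left out and a threshold of 0.1. Leaving out slide 4 was added after seeing the data.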

Additional observations from a re-analysis of the deposited data

How the results depend on the processing

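Arc kept its sign under all 36 alternatives, from −0.56 to −0.37 (limma, adjusted p 0.00557 to 0.428), and passed in 16. It did not pass with the percentile taken over bright probes (−0.37), normexp background correction (−0.39), the deposited table (−0.44), no filter on dim probes (−0.44), the slide as a fixed block (−0.41), within scan day 1 (−0.40) or 2 (−0.47), or without slide 4 (−0.38, added after seeing the data). In each of these 8 settings 0 members were called. With each mouse left out, Arc ran from −0.51 to −0.39, and the 12 fits that lost it ran from −0.45 to −0.39; 0 to 1 members were called. With the median of each array as the scale, which moved the median difference of all genes to −0.126, 2 members were called (Arc, −0.56, and Egr1).

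The number of genes called, 933 in all, was 523 with quantile normalization, 4168 with array medians (178 higher, 3990 lower), 270 with normexp (27 higher, 243 lower), 535 with the deposited table, 598 with no filter (242 higher, 356 lower), 488 with the slide as a fixed block, 0 within scan day 1 (limma; 2837 at an unadjusted p under 0.05), 7 within day 2 (3434), and 2039 at an adjusted p of 0.1. With bright probes it was 721 (455 higher, 266 lower). It was 364 to 1030 with each mouse left out, and was lowest without control replicate 5 (364) or 7 (390). Small differences turned sign: Fosb with quantile normalization (−0.036), array medians (−0.11), the deposited table (−0.0406), scan day 1 (−0.0536) and 7 of the mice left out in turn (all fits −0.0518 to 0.0837); Junb with quantile normalization (−0.22), the deposited table (−0.20), scan day 2 (−0.19) or without control replicate 2 (all such fits −0.0772 to 0.27); Egr2 within scan day 1 (0.10); and Nr4a1 within scan day 2 (0.0382). Of 22 genes of the other lists called, 10 were still called with quantile normalization or the deposited table, 9 with bright probes, 12 with normexp, 11 with no filter, 10 with the slide as a fixed block, 15 without slide 4, 0 within scan day 1 and 1 within day 2. With group means left in, 13 pairs of members passed instead of 7. The causes were not tested.

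Same-numbered mice deviated together only weakly (correlations −0.07 to 0.24), so the numbers are not taken to pair the samples; with a replicate block 812 genes were called and Arc differed by −0.44 (limma, adjusted p = 0.0307). The signal over background limits Egr3, Junb and Egr2, whose values lie near the lowest signal detected.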
